A study of Mus musculus with 2 samples.

Results

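Border macrophages of the mouse hippocampus were described in single-cell RNA data, as cells selected on their measured transcripts of macrophage markers of the brain's borders and of microglial genes. They made up 93 of 12599 filtered cells, 69 in a wild-type library and 24 in a Crlf3-mutant library. A cell was a member if it held at least 10 transcripts of Mrc1, Cd163, F13a1, Lyve1, Pf4, Ms4a7 and Cbr2 together. These also had to exceed its transcripts of the microglial genes P2ry12, Tmem119, Siglech and Sall1, with fewer than 10 of the endothelial and astrocyte genes Cldn5, Flt1, Slc1a2 and Aldoc. Transcripts were counted as UMIs, the molecular identifiers that mark each captured RNA molecule, in barcodes with 500 or more genes, 1000 or more UMIs and no more than 10% of UMIs from mitochondrial genes. The hippocampi came from untreated mice aged 4 weeks. The controls were wild type, and the mutants carried L389P, a protein change of cytokine receptor-like factor 3 (Crlf3), whose zygosity is not stated in the sources used here. Each library pooled 4 hippocampi of 2 mice after enzymatic dissociation, debris and myelin removal and a sort of live cells, so animals cannot be told apart. With 1 library per genotype genotypes could not be tested against each other, and no p-values are printed.

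Border macrophages line the vessels, meninges and choroid plexus of the brain and sample antigen, lipids and proteins from the fluid around them. They are distinct from microglia, the macrophages within the brain tissue, which share with them the growth factor receptor Csf1r and the complement genes. Mrc1 and Cd163 encode scavenger receptors, Lyve1 a hyaluronan receptor, Pf4 a chemokine and F13a1 the A subunit of coagulation factor XIII. Some border macrophages present antigen on MHC class II molecules and others do not, and the groups are often told apart by Lyve1 and MHC class II.

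The 6 marker genes of the label, Mrc1, Cd163, F13a1, Pf4, Ms4a7 and Cbr2, are all rule genes. Their levels in the members were therefore largely set by the rule and do not check the label. Each was detected in both libraries, and 2 of the 24 mutant members, described below, go against the label. The level of a gene is its UMIs per 1000000 (CPM), after summing over the cells of a class. For the markers together it was 6533 and 7868 CPM in wild-type and mutant members, against 15.2 and 14.2 CPM in microglia. Microglia here are the 4299 wild-type and 3179 mutant cells with at least 10 UMIs of P2ry12 and Tmem119 and fewer macrophage UMIs. Mrc1 was detected in 69 of 69 members of the wild-type library and 23 of 24 of the mutant library, at 1337 and 1556 CPM against 12.1 and 11.3 CPM in microglia. Pf4 reached 1718 and 2362 CPM, Cbr2 1225 and 1329 CPM, F13a1 889 and 1150 CPM, Ms4a7 824 and 603 CPM, and Cd163 540 and 867 CPM, each at or below 1.11 CPM in microglia. Lyve1 was the lowest of the 7, at 126 and 246 CPM. These values chose the cells and are a description.

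The macrophage sum ran from 11 to 153 UMIs per wild-type member, with a median of 38, and from 18 to 163 with a median of 42.5 in the mutant library. Just inside the threshold, 5 wild-type members and 0 mutant members had 10 to 14 macrophage UMIs. Just outside it, 9 and 4 cells had 5 to 9. Another 5 and 3 cells had at least 10 macrophage UMIs but more microglial ones. The limit on endothelial and astrocyte UMIs removed 2 and 1. Members held a median of 2 (wild type) and 1 (mutant) microglial-rule UMIs, and 2 cells of each library held at least 10. The 4 cells are those closest to microglia in the plot of both sums.

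**Figure D1:**
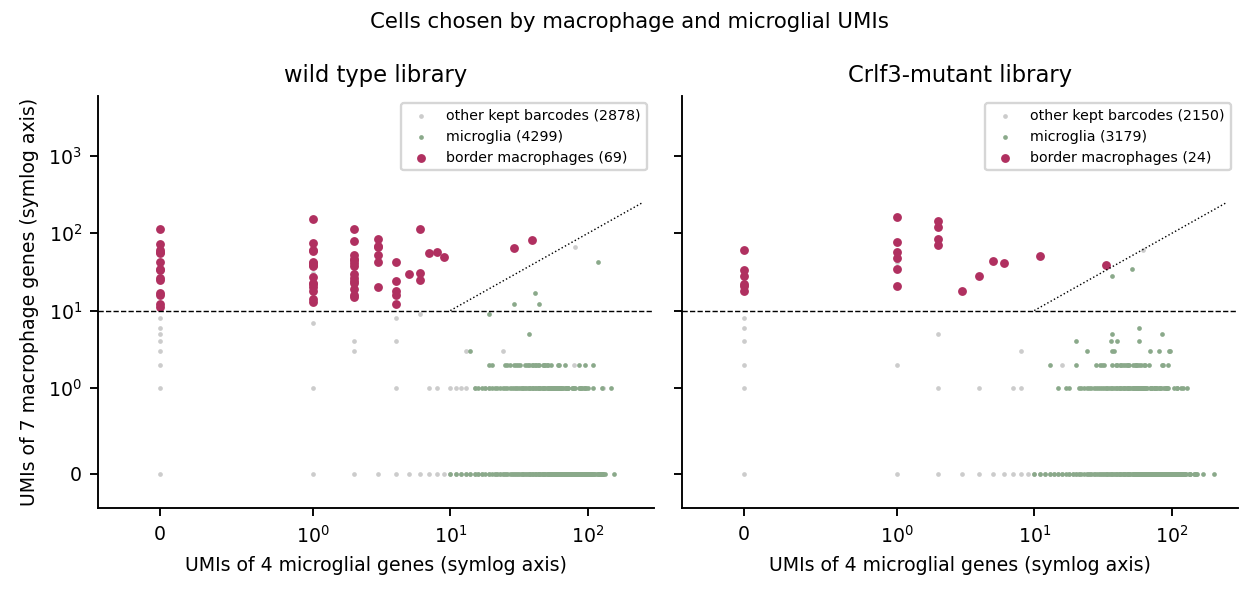
UMIs of the 7 macrophage genes (vertical, symlog axis) against UMIs of the 4 microglial genes (horizontal, symlog axis) for each kept barcode, wild type on the left and Crlf3-mutant on the right. The dashed line marks 10 macrophage UMIs and the dotted line equal sums; the 69 and 24 border macrophages sit above both lines, apart from the dense band of microglia at 0 to 2 macrophage UMIs.

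Of the other cell types checked, monocytes left a trace in the mutant library, and dendritic cell markers a smaller one in the wild-type library. The dendritic cell markers summed to 51.8 and 12.3 CPM in wild-type and mutant members, 23 and 2 UMIs, against 4.63 and 6.20 CPM in microglia. The 23 wild-type UMIs lay in 11 members, of which 1 held 9. In the mutant library 2 of the 24 members held at least 5 UMIs of a set of monocyte genes, Ly6c2, Ccr2, Plac8, Chil3, Vcan and Fn1 among them, and both entered the rule mostly through F13a1. One of these cells held 97 monocyte UMIs, among them 19 of Ly6c2 and 17 of Ccr2, and all 22 of its macrophage UMIs were F13a1. The other held 36 monocyte UMIs, 13 of Ccr2 and 23 of Fn1, and 16 of its 18 macrophage UMIs were F13a1. The remaining 22 mutant members held no monocyte UMI and at least 4 of the 7 rule genes each. In the wild-type library the highest monocyte sum was 3 UMIs, and each member held at least 3 rule genes. Their monocyte genes go against the name border macrophage, and the mutant values that rest most on them are also given without them. Markers of T or NK cells, mast cells and red blood cells were at 0 in both libraries. Neutrophil markers were at 0 in wild-type members and at 5 UMIs, in 1 cell, in mutant members. Choroid plexus epithelial markers summed to 678 and 80.0 CPM in wild-type and mutant members, against 2068 and 1253 CPM in microglia, and a single cell held 255 of the 301 wild-type UMIs.

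Members held a median of 5612 (wild type) and 6976.5 (mutant) UMIs, against 6497 and 7860 in microglia. Summed over members, 444236 and 162555 UMIs stood behind the values below. The libraries shared 56 kept barcodes, of which 0 were border macrophages. Intervals given below are 95% intervals for counting error only, exact Clopper-Pearson for shares and exact for the ratio of 2 Poisson counts. They do not cover uneven UMIs among cells or differences between mice, dissociations or sorts.

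Outside the rule genes, those higher in border macrophages than in microglia included antigen presentation, interferon-response, lipid and chemokine genes. Since the rule used this contrast, these levels are a description. Of 1705 genes with at least 100 CPM, 20 UMIs and 5 cells in the group where they were higher, in both libraries, 90 (5.28%) were at least 4-fold higher in border macrophages in both libraries and 57 (3.34%) at least 4-fold lower, 147 (8.62%) in all, with a pseudocount of 10 CPM. A gene low in a class passed this minimum only through the other class, so counts of measured list genes lean to genes with a gap. Apoe, the lipid carrier apolipoprotein E, was the most abundant gene named here, with 30727 and 30433 CPM in wild-type and mutant members against 784 and 878 CPM in microglia. The MHC class II genes H2-Aa, H2-Ab1, H2-Eb1 and Cd74 led the ranking. H2-Aa, the class II alpha chain of the A molecule, was at 1949 and 2448 CPM against 1.28 and 0.61 CPM. Cd74, the invariant chain that escorts class II molecules, was at 7975 and 10667 CPM against 69.9 and 77.1 CPM.

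The 15 highest genes by the ratio closer to 0 of the libraries also held Ifi207, Ms4a4a, Ifitm2, Ifitm3, Ccl7, Ifi27l2a, Lyz2, Ccn1, Cybb, Lilrb4a and Pla2g7. Ms4a4a, a membrane protein of the same family as the rule gene Ms4a7, was at 709 and 861 CPM, and found in 64 of 69 and 20 of 24 members, against 0.54 and 0.92 CPM in microglia. Lyz2, lysozyme, was at 7539 and 11190 CPM against 157 and 174 CPM. Cybb, the catalytic subunit of the phagocyte NADPH oxidase, was at 423 and 449 CPM against 1.31 and 0.57 CPM. Lilrb4a, an inhibitory receptor, was at 669 and 578 CPM against 5.50 and 5.55 CPM. Ifi207 and Ifi27l2a, both induced by interferon, were at 779 and 744 CPM and at 1301 and 1040 CPM, against at most 8.89 CPM in microglia. The 2 genotypes lay close together on these levels, and the gap to microglia was many times wider.

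Of a list of 36 border macrophage genes outside the rule, 24 were measured against microglia and 17 were at least 4-fold higher in both libraries, beside 5.28% of all measured genes. Dab2, an endocytic adaptor, was at 682 and 726 CPM against 17.3 and 16.5 CPM. Tgfbi, an extracellular matrix protein, was at 552 and 658 CPM against 23.1 and 22.2 CPM. Stab1, the scavenger receptor stabilin 1, differed less, at 725 and 824 CPM against 165 and 153 CPM. Maf and Selenop, also on the list, were shared with microglia. Selenop, a selenium carrier, was at 4356 and 4823 CPM against 3004 and 3177 CPM. Ltc4s, leukotriene C4 synthase, went the other way, at 401 and 332 CPM against 673 and 622 CPM. Vsig4, a complement receptor of other tissue macrophages, was at 0 UMIs in members of both libraries.

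Of 15 genes on a type I interferon response list, 6 were measured. All 6 were at least 4-fold higher than in microglia, beside 5.28% of all measured genes. Genes this low in microglia were measured only because they were high in members, so the count of 6 was largely set by the filter. Irf7, an interferon-response transcription factor, was at 232 and 148 CPM against 7.78 and 5.01 CPM. Bst2, which tethers budding viruses, was at 986 and 1070 CPM against 99.9 and 93.9 CPM. Of 13 measured chemokines and cytokines, 5 were higher and 1 was lower at that fold, beside 5.28% and 3.34% of all measured genes. Cxcl2, a neutrophil chemokine, was at 2247 and 3347 CPM against 58.0 and 44.3 CPM. Il1a was the lower one, at 33.8 and 61.5 CPM against 618 and 560 CPM, while Il1b was higher, at 907 and 714 CPM against 89.2 and 77.9 CPM. Ccl3, Ccl4 and Tnf, chemokines and a cytokine that microglia also carried, stayed within 4-fold.

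Of 7 measured lipid handling genes, 3 were at least 4-fold higher than in microglia in both libraries and 0 lower. Over all measured genes these shares were 5.28% and 3.34%. Pltp, the phospholipid transfer protein, was at 365 and 468 CPM against 13.6 and 10.6 CPM, and Trem2, a lipid receptor, was lower than in microglia, at 403 and 418 CPM against 1589 and 1512 CPM. Of the phagocytic receptor kinases, Axl was higher, at 189 and 172 CPM against 3.02 and 3.29 CPM, and Mertk lower, at 142 and 178 CPM against 420 and 457 CPM. Among the lysosomal cathepsins, Ctsc was at 1898 and 1686 CPM against 342 and 336 CPM, and Ctsd at 925 and 1495 CPM against 7611 and 7448 CPM. The growth factor Igf1 was at 133 and 148 CPM against 1.54 and 1.91 CPM.

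Genes of the common macrophage programme lay near the microglial level. The complement genes C1qa, C1qb and C1qc were at 7780 and 6490, 8241 and 7179, and 6208 and 5856 CPM, against 6852 and 6755, 7670 and 7649, and 6466 and 6308 CPM. Csf1r was at 2508 and 2608 CPM against 3885 and 3994 CPM. Of 17 measured homeostatic microglia genes outside the rule, 10 were at least 4-fold lower in members, beside 3.34% of all measured genes. Selplg, a selectin ligand, was at 205 and 234 CPM against 3326 and 3342 CPM. Slc2a5, the fructose transporter, had 2 and 0 UMIs in members, against 198 and 207 CPM in microglia. Sgk1, Lag3, Golm1, Serpine2, St3gal5, Rtn4rl1, Phgdh and Ecscr completed the 10 lowest. Fcrls, often used to mark microglia, was at 1501 and 1341 CPM against 2133 and 2039 CPM, so it separated these classes little.

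**Figure D2:**
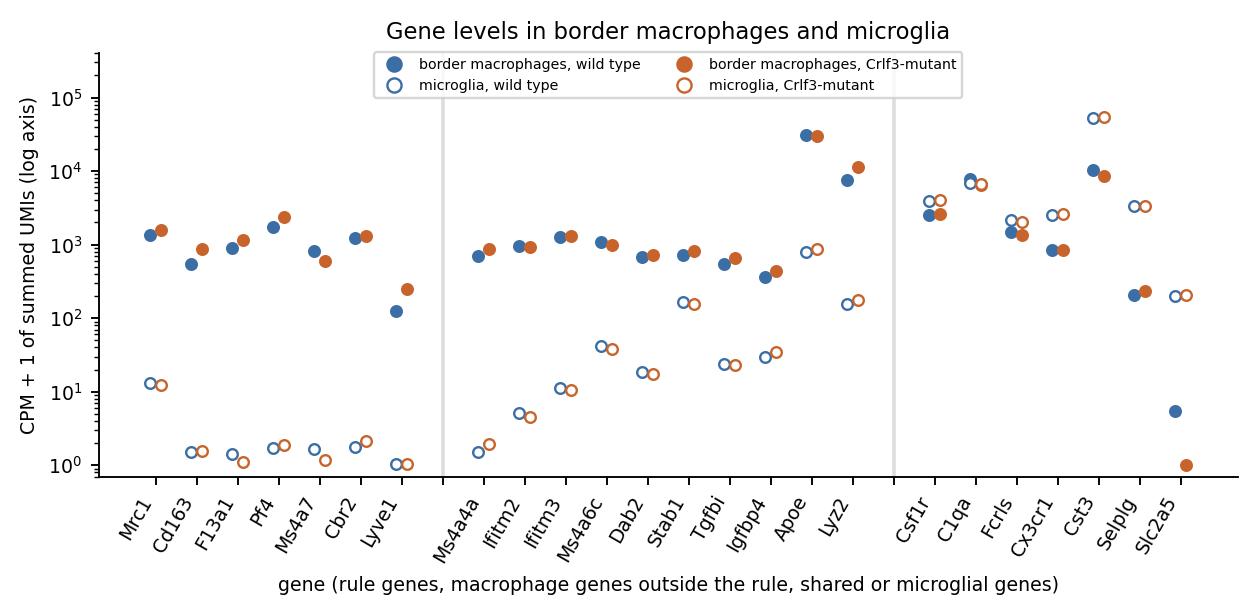
Summed level of each gene (CPM + 1, log axis) in border macrophages (filled) and microglia (open), wild type in blue and Crlf3-mutant in orange, 1 point per library and class. Rule genes stand on the left, macrophage genes outside the rule in the middle and shared or microglial genes on the right, where C1qa points coincide and Slc2a5 has 2 and 0 UMIs in border macrophages.

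Border macrophages made up a larger share of the filtered cells in the wild-type than in the mutant library. They were 69 of 7246 filtered cells, 0.952% (95% interval 0.742 to 1.20), among wild-type cells and 24 of 5353, 0.448% (0.287 to 0.666), among mutant cells. The wild-type share was 2.12 times the mutant share (1.32 to 3.53). Among border macrophages and microglia together the shares were 1.58% and 0.749%, a ratio of 2.11. Without the 2 mutant cells that carry monocyte genes the ratio was 2.32. Genotype, mice, dissociation and sort cannot be told apart with 1 library each.

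Within each library, the share of border macrophages also differed between cells with female and with male transcripts. The labels do not give the sex of the mice. Both libraries held cells with Xist, the RNA of the inactive X chromosome in females, and cells with Y-linked transcripts, so both pooled female and male tissue. Cells with Xist and without Y-linked transcripts are called Xist-marked here, and those with the reverse Y-marked. Among wild-type border macrophages 7 were Xist-marked and 32 Y-marked, so 17.9% of these were Xist-marked (7.54 to 33.5). Among wild-type microglia 61.8% were, 1972 cells against 1219. Mutant border macrophages numbered 4 Xist-marked and 9 Y-marked, 30.8% (9.09 to 61.4), against 56.1% of mutant microglia. In wild-type members Xist stood at 54.0 CPM against 256 CPM in microglia, and the Y-linked genes at 115 against 77.9 CPM. With each cell thinned to 2000 UMIs, 9.09% of wild-type members and 31.9% of wild-type microglia held Xist, and 19.7% and 12.8% held a Y transcript. In the mutant library these were 9.52% and 28.7% for Xist, and 19.0% and 14.3% for a Y transcript.

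Among Xist-marked cells, border macrophages were 0.240% (wild type) and 0.187% (mutant), 7 and 4 cells, a ratio of 1.28. Among Y-marked cells they were 1.51% and 0.506%, 32 and 9 cells, a ratio of 2.98. The wild-type share was thus higher in both subsets and much closer to the mutant share in the Xist subset. The part of single mice in the difference was not tested.

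**Figure D3:**
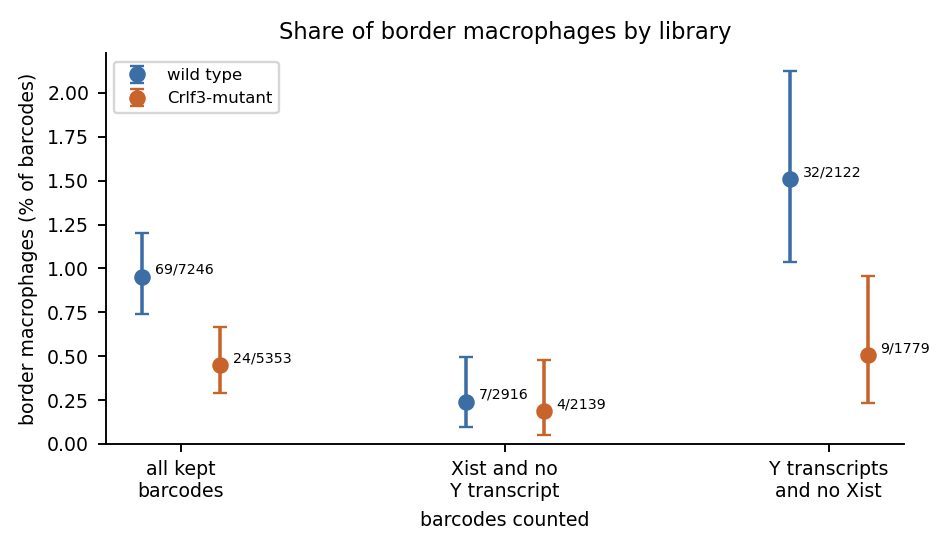
Border macrophages as a percentage of filtered barcodes in each library, over all barcodes, Xist-marked barcodes and Y-marked barcodes. Points carry exact Clopper-Pearson 95% intervals (counting error only) and the counts beside them; the 2 libraries lie apart over all barcodes and in the Y subset, and overlap in the Xist subset at 7 and 4 cells.

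Border macrophages varied widely among themselves in MHC class II transcripts. The UMIs of H2-Aa, H2-Ab1, H2-Eb1 and Cd74 per cell ran from 0 to 948 per wild-type member, with a median of 6, and from 0 to 1137 per mutant member, with a median of 9.5. None were held by 18 of 69 wild-type and 9 of 24 mutant members. At least 10 UMIs were held by 29 of 69 wild-type members, 42.0% (30.2 to 54.5), and by 12 of 24 mutant members, 50% (29.1 to 70.9). The same count was reached by 0.651% and 0.786% of microglia, and by 1 of 884 wild-type astrocytes and 0 of 549 mutant astrocytes, which allows a share of up to 0.546%. Those astrocytes held a median of 6230 and 7880 UMIs. The counts ran without a gap in the wild-type library, where 11 members lay at 5 to 20 UMIs, while no mutant member lay between 4 and 15. After thinning to 2000 UMIs per cell, at least 10 class II UMIs were left in 34.8% of 66 wild-type and 42.9% of 21 mutant members, with 3 shallower cells left out in each library. The wild-type members richest in class II, at 948, 484 and 468 UMIs, held 15, 153 and 12 macrophage UMIs. Of the 15 macrophage UMIs of the first, 13 were Ms4a7, and this cell held 3 UMIs of dendritic cell markers. It also held 209 of the 866 wild-type UMIs of H2-Aa. The richest mutant member, at 1137 class II UMIs, held 57 macrophage UMIs. Of dendritic cell markers, Flt3 had 4 UMIs in 4 wild-type members with at least 10 class II UMIs, and Clec9a 3 in 1 such member. In wild-type members under 10, Cd209a had 12 UMIs in 2 cells and Zbtb46 2 in 2 cells.

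H2-Aa and H2-Eb1 are part of the class II sum, and H2-DMb1, outside it, was higher in members with at least 10 class II UMIs. The sequences just before these 3 class II genes are shown because their promoters are known to share upstream elements. They are the 150 bases before the transcription start in RefSeq, build GRCm38.p6, written along the strand of the gene, with a match to TGATTGG, the Y box letters, in capitals. Also in capitals is AACTGATGATGCT, the longest run shared by the H2-Eb1 and H2-DMb1 windows, where the X box lies. H2-Aa lies at chr17:34287824-34287973 on the minus strand, H2-Eb1 at chr17:34305717-34305866 on the plus strand and H2-DMb1, a subunit of the molecule that loads peptides, at chr17:34153041-34153190 on the plus strand.
H2-Aa: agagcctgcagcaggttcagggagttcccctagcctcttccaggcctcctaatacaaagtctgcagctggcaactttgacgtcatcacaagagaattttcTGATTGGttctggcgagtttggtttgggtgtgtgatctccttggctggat
H2-Eb1: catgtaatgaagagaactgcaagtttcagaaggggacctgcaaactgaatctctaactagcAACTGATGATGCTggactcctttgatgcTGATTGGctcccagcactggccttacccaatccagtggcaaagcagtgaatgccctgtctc
H2-DMb1: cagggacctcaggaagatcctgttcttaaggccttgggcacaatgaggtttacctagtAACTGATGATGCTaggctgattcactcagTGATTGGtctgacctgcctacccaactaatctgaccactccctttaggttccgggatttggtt

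The Y box letters begin 50, 61 and 63 bases before the start of H2-Aa, H2-Eb1 and H2-DMb1. Searched on both strands, they occur in 5.71% of 32851 such windows. The shared run was picked from these sequences, and occurs in 2 of the windows, those of H2-Eb1 and H2-DMb1, so their share says nothing about the genes. The motifs did not overlap. Of the 11 genes on the MHC class II list, 6 had a promoter entry and 4 of these held the Y box letters, H2-Oa being the fourth. Ciita, the coactivator that drives class II promoters, was at 3 and 2 UMIs over all wild-type and mutant members, each of them in cells with at least 10 class II UMIs.

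Members were split at 10 class II UMIs, so the split of the summed class II genes themselves was fixed. H2-DMb1, outside that sum, was higher on the same side. It had UMIs in 14 of 29 wild-type members with at least 10 class II UMIs and in 8 of 40 others. In the mutant library these were 5 of 12 and 2 of 12. It was at 261 CPM in wild-type members with at least 10 class II UMIs and 37.9 CPM in the others. In the mutant library it was at 202 and 34.2 CPM. Without the cell richest in H2-DMb1 on the high side, its level there was 199 CPM (wild type) and 129 CPM (mutant). H2-DMa, its partner chain, was at 473 against 156 CPM and at 230 against 68.5 CPM. Cd86, a costimulatory receptor, was not split this way, at 362 against 493 CPM and at 365 against 377 CPM. Apoe was level between these groups of cells, at 30120 against 31256 CPM and at 31216 against 29037 CPM.

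Several macrophage genes, scavenger receptors among them, were higher in members low in class II in both libraries. Those named were picked for this after their values were seen, from 117 genes compared. Clec4n, a C-type lectin, was at 253 CPM in wild-type members under 10 class II UMIs and 48.3 CPM in the others, and at 308 and 38.4 CPM in the mutant library. Wfdc17, a secreted whey acidic protein family member, was at 384 and 87.0 CPM for wild type and 1729 and 86.4 CPM for mutant members. Stab1 was at 910.5 and 512 CPM and at 1250 and 586 CPM. By contrast, Folr2 went this way only in the wild-type library, at 228 and 33.8 CPM, and was at 120 and 259 CPM in the mutant library. Of its 27 UMIs in mutant members with at least 10 class II UMIs, 18 lay in 1 cell. Cbr2, a carbonyl reductase, was at 1640 and 749 CPM and at 2072 and 912 CPM. Cbr2 is a rule gene that helped to choose the members, so its levels are a description.

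Lyve1, also a rule gene, was sparse, with a UMI in 16 of 69 wild-type and 6 of 24 mutant members. It was in 0 of 884 and 0 of 549 astrocytes, which allows up to 0.339% and 0.546%. Of the members with Lyve1, 4 of 16 and 2 of 6 held at least 10 class II UMIs, against 25 of 53 and 10 of 18 of those without. Class II also differed between Y-marked and Xist-marked members. Of wild-type members, 19 of 32 Y-marked reached 10 class II UMIs, 1 of 7 Xist-marked did, and 9 of 28 with neither did. In the mutant library these were 6 of 9, 1 of 4 and 5 of 11. The part of single mice in these counts was not tested.

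**Figure D4:**
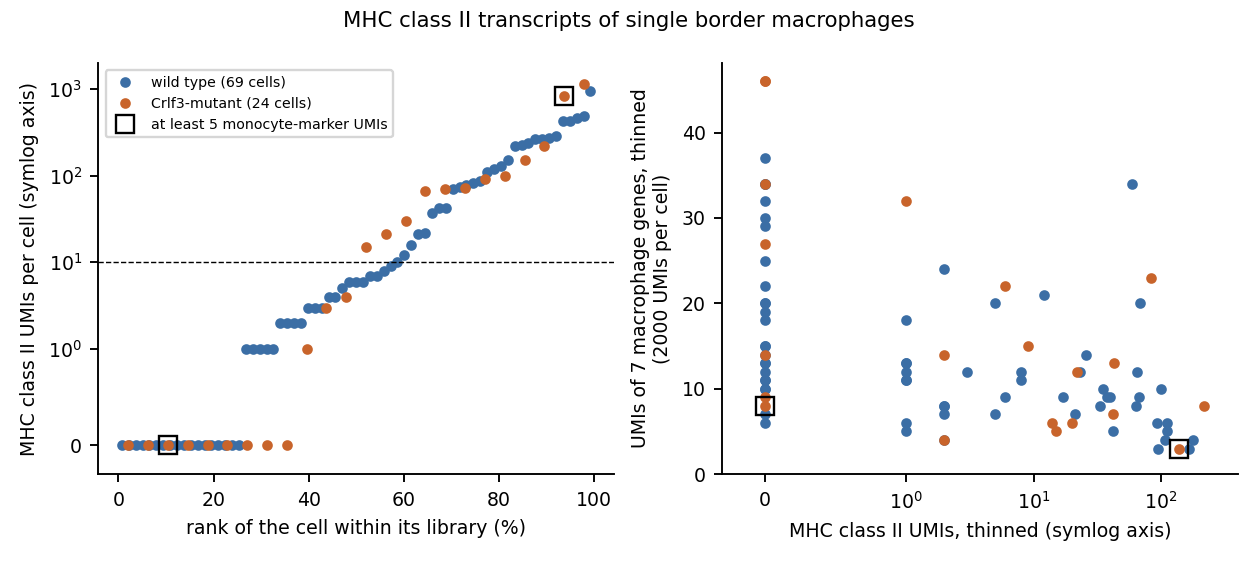
Left: MHC class II UMIs of each border macrophage (symlog axis) in rank order within its library; the dashed line marks 10 UMIs, and squares mark the 2 mutant cells with at least 5 monocyte-marker UMIs. Right: UMIs of the 7 macrophage genes against MHC class II UMIs after thinning each cell to 2000 UMIs, with 1 point per cell of at least that depth. Both sums of a cell come from the same 2000 UMIs, so no relation is read from them.

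By genotype, most measured genes of border macrophages lay within 2-fold. Of 1588 genes with at least 100 CPM, 20 UMIs and 5 cells in the library where they were higher, 13 (0.819%) were at least 2-fold higher in the mutant members and 29 (1.83%) at least 2-fold lower, 42 (2.64%) in all. The minimum of 20 UMIs and 5 cells is harder to reach in 24 mutant than in 69 wild-type cells. Genes higher in the mutant library thus faced the stricter filter, and the counts of 13 and 29 are not on equal terms. The median log2 ratio of mutant over wild type was -0.04. With cells thinned to 2000 UMIs, 9 genes were higher and 62 lower among 744 measured, and with a pseudocount of 50 CPM 8 were higher and 12 lower. Ratios are of 24 against 69 cells of 1 library each. A difference in sex mix between those cells was not shown. After thinning, 9.09% of wild-type and 9.52% of mutant members held Xist, and 19.7% and 19.0% a Y transcript.

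Ccl24, the eotaxin-2 chemokine gene (chr5:135569937-135573049 in GRCm38, minus strand), was the highest in the mutant library. It reached 92.3 CPM in the wild-type members and 554 CPM in the mutant ones, with UMIs in 13 of 69 and 11 of 24 cells and in 0.226% and 0.364% of astrocytes. Its log2 ratio was 2.46 (2.04 to 3.15 for the ratio without pseudocount), and it was level in microglia, at 5.30 and 5.47 CPM. None of its mutant UMIs came from the 2 cells with monocyte genes. A single mutant cell held 35 of the 90 UMIs and a single wild-type cell 19 of 41. Over the alternative settings its log2 ratio ran from 2.08 to 2.81.

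Klf4, a Krüppel-like transcription factor (chr4:55527143-55532466, minus strand), was at 270 and 763 CPM, with UMIs in 40 of 69 and 16 of 24 members and 21.0% and 17.5% of astrocytes. Its log2 ratio was 1.46 (1.12 to 1.87), against -0.13 in microglia, and ran from 0.83 to 1.71 over the alternatives. The lowest of these was in Y-marked cells. Wfdc17 was at 245 and 677 CPM, a log2 ratio of 1.43 (1.07 to 1.86), which was 0.56 with cells thinned to 2000 UMIs. A single mutant cell held 43 of its 110 UMIs. Krtcap2, a subunit of the oligosaccharyltransferase complex, was at 78.8 and 197 CPM and Crybb1, a crystallin that is also a microglial gene, at 54.0 and 135 CPM. Crybb1 was at 824 and 759 CPM in microglia, several times its level in the members. Both passed 2-fold, with log2 ratios of 1.22 and 1.18, but not under each alternative: Krtcap2 was at 0.59 after thinning and Crybb1 at 0.19 in Y-marked cells.

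The other 5 of the 10 highest genes rested on a few cells. Of the mutant UMIs of S100a11, Smpdl3a, Tmsb10 and Lsp1, 82.1%, 81.0%, 70.7% and 59.5% came from the 2 cells with monocyte genes. Without those cells their log2 ratios went from 2.31 to 0.23, from 2.31 to 0.45, from 1.29 to -0.23 and from 1.79 to 0.76. These cells also held 35.4% of the mutant UMIs of Lyz2, whose log2 ratio was 0.57 with them and 0.14 without. Of the 22 mutant UMIs of Fscn1, an actin-bundling gene, 16 came from 1 cell.

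Slamf9, a receptor of the SLAM family (chr1:172475358-172478575, plus strand), was lower in the mutant members, with 151 CPM against 24.6 CPM. It had 67 UMIs in 32 of 69 wild-type and 4 UMIs in 4 of 24 mutant cells, and was found in 1.81% and 2.00% of astrocytes. Its log2 ratio was -2.22 (-4.53 to -1.19), against -0.01 in microglia, and ran from -2.57 to -1.43 over the alternatives. Ccrl2, an atypical chemoattractant receptor, was at 351 and 111 CPM, a log2 ratio of -1.58 (-2.46 to -0.96). It was found in 40 of 69 and 7 of 24 members, and a single mutant cell with monocyte genes held 8 of the 18 mutant UMIs. Without those cells the log2 ratio was -2.16, and it ran from -2.68 to -1.21 over the alternatives. Cd72, an inhibitory lectin, was at 146 and 43.1 CPM, a log2 ratio of -1.56 (-3.13 to -0.64). Ywhaq, a 14-3-3 protein, was at 182 and 61.5 CPM. Ndufa11, a subunit of respiratory complex I, was at 124 and 36.9 CPM, with 22 of its 55 wild-type UMIs in 1 cell. Got1, a cytosolic aminotransferase, and Oser1 were each at 101 and 24.6 CPM. These 5 genes kept their direction but fell short of 2-fold under at least 1 alternative, where the log2 ratio closest to 0 was -0.87 for Cd72, -0.69 for Ywhaq, -0.54 for Ndufa11, -0.96 for Got1 and -0.77 for Oser1.

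The remaining 3 of the 10 lowest genes came almost wholly from single wild-type cells. Mt3 had 75 wild-type UMIs, 69 of them in 1 cell, and 1 mutant UMI. The same cell, which held the 255 choroid plexus marker UMIs, also held 54 of the 59 wild-type UMIs of Chchd10, which was at 0 in mutant members. This cell is the 1 member that Scrublet called a doublet. The log2 ratio of Chchd10 was -3.84, and -1.11 both without its richest cell and without the called doublets. Of 45 wild-type UMIs of Hist1h2ap, a histone gene, 40 lay in another cell, with 18 UMIs of the cell cycle gene Top2a. The open symbols in the plot of levels by genotype are these 3 genes with the 5 of the preceding highest genes.

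**Figure D5:**
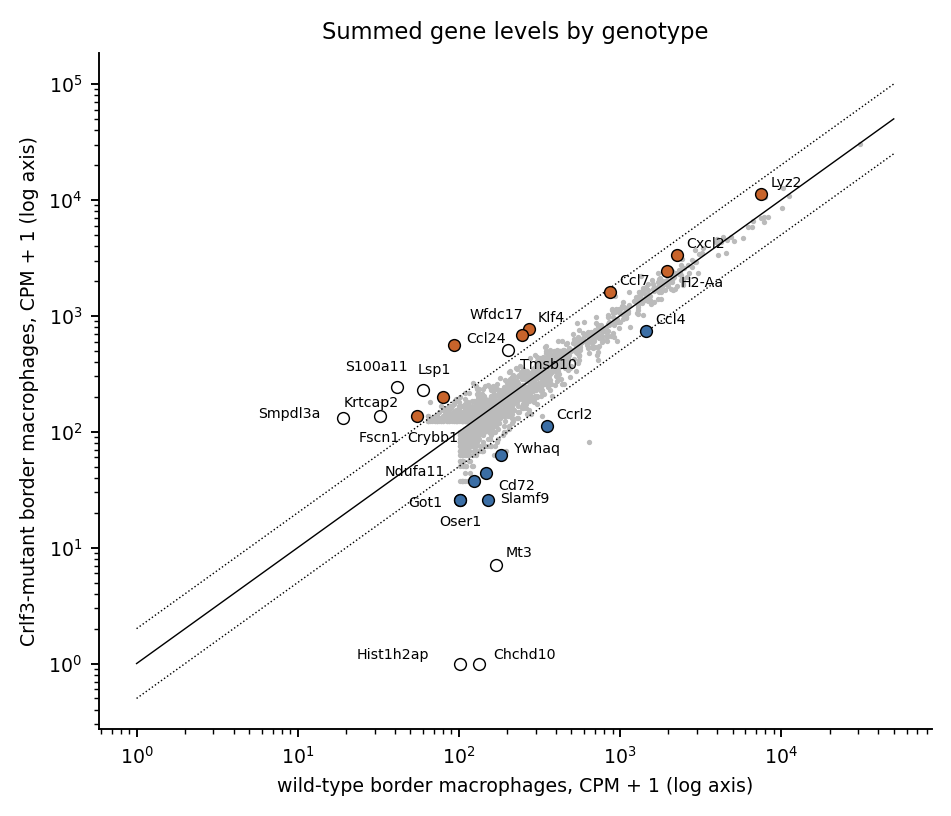
Summed level of each measured gene in Crlf3-mutant (vertical) and wild-type (horizontal) border macrophages, CPM + 1 on log axes, 1 grey point per gene, with equality as a solid and 2-fold as dotted lines. Orange and blue points are named genes higher or lower in the mutant library; open points are named genes with over 50% of the UMIs of the library where they were higher in 1 cell or in the 2 mutant cells with monocyte genes.

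Of the 20 chemokine and cytokine genes listed, 14 were measured by genotype. Ccl24 was at least 2-fold higher and 0 were at least 2-fold lower, beside 0.819% and 1.83% of all measured genes, and their median log2 ratio was 0.05. Ccl4, a chemokine, came closest to 2-fold lower, at 1447 and 738 CPM, a log2 ratio of -0.96 (-1.26 to -0.69). Its UMIs lay in 42 of 69 wild-type and 5 of 24 mutant members, and in 6.79% and 4.19% of astrocytes. A single mutant cell held 58 of the 120 mutant UMIs of Ccl4 and 1 cell held 69 of the 127 of Ccl3, so the count of 0 lower genes depends on single cells. Without the richest cell of each library Ccl4 was at -1.67 and Ccl3, which had a log2 ratio of -0.34, at -1.20. The Ccl4 ratio was also past 2-fold after thinning (-1.63), in Y-marked cells (-1.95) and as a mean over cells (-1.47), and was -0.01 in members under 10 class II UMIs. Microglia differed in the same direction, at 1894 and 1238 CPM, a log2 ratio of -0.61. Ccl7, a monocyte chemokine, was higher at 864 and 1593 CPM, a log2 ratio of 0.87 (0.65 to 1.11) that ran from 0.12 to 1.54 over the alternatives. A single mutant cell held 98 of the 259 mutant UMIs of Ccl7, and without that cell the ratio was 0.25. Cxcl2 was also higher, with 0.57 (0.42 to 0.73). In Y-marked cells the Cxcl2 ratio was turned round, at -0.73. Il10 was under the minimum for a measured gene, with 0 UMIs in wild-type members and 14 in mutant members, of which 9 lay in 1 of 2 cells.

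Of 26 measured border macrophage genes, Ccl24 and Wfdc17 were at least 2-fold higher and 0 lower. The median log2 ratio of the 26 was 0.14, against -0.04 over all measured genes, and 18 were above 0. Over all measured genes 0.819% were at least 2-fold higher and 1.83% lower, the shares to set beside this list and those that follow. So few genes past 2-fold are not read as a result about a list. Dab2 and Ms4a6c had log2 ratios of 0.09 and -0.15. Of 15 measured macrophage transcription factors, only Klf4 passed 2-fold, and the median was 0.00. Irf8 was at 239 and 369 CPM, a log2 ratio of 0.61, and Mef2c at 434 and 258 CPM, a log2 ratio of -0.73. Of 9 measured heat shock genes, Hspa1b, an inducible HSP70 gene, was at least 2-fold lower, at 115 and 36.9 CPM, a log2 ratio of -1.41. It was short of 2-fold in Y-marked cells (-0.70), with no limit on endothelial and astrocyte UMIs (-0.88), with a pseudocount of 50 CPM (-0.92) and without cells of at least 10 microglial UMIs (-0.99). Hspa1a was at 335 and 338 CPM, with 27 of its 55 mutant UMIs in 1 cell.

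The 7 measured MHC class II list genes had a median log2 ratio of 0.33, with 0 at 2-fold. H2-Eb1 was at 1346 and 2190 CPM, a log2 ratio of 0.70 (0.51 to 0.89), which was 0.11 without the cells with monocyte genes and 0.28 without the richest cell of each library. H2-DMa, at 304 and 172 CPM, was on the other side at -0.78, and past 2-fold at -1.35 and -1.18 under those settings. The 2 mutant cells richest in class II transcripts held 70.1% of the library's class II UMIs, against 25.1% for the 2 richest wild-type cells, and the second of these mutant cells carried monocyte genes. Without the cells with monocyte genes the list median was -0.05, in Y-marked cells -0.29 and as a mean over cells -0.14, so the direction was not kept. The 9 measured MHC class I genes had a median of -0.15 and 0 at 2-fold, from -0.93 for the peptide transporter gene Tap1, with 9 mutant UMIs, to 0.00 for H2-D1.

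The 8 measured interferon response genes had a median of -0.44 and 0 at 2-fold, and the median was 0.0077 with a minimum of 5 macrophage UMIs. Irf7 was at 232 and 148 CPM, Oasl2 at 245 and 160 CPM and Isg15 at 173 and 105 CPM, all lower, while Irf9, at 63.0 and 135 CPM, was higher. The log2 ratio of Irf7 was -0.62, and -0.05 in Y-marked cells. A single mutant cell held 10 of the 24 mutant UMIs of Irf7. Without that cell the ratio was -1.26, so the count of 0 at 2-fold depends on single cells. The 20 immediate early genes, which dissociation induces, had a median of 0.00 with 10 above and 10 below 0, and 0 at 2-fold. The 18 measured lysosome genes had a median of 0.00, from -0.80 for Cd63 to 0.69 for Ctsd, of whose 243 mutant UMIs 1 cell held 71. The measured genes of the complement, scavenger receptor, lipid, iron, growth factor, receptor, matrix and JAK-STAT lists were all within 2-fold, with medians from -0.24 to 0.17. Apoe had a log2 ratio of -0.01 (-0.06 to 0.03).

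Crlf3 itself (chr11:80046493-80080991, minus strand) was at 169 and 129 CPM in wild-type and mutant members, 75 and 21 UMIs. Its log2 ratio was -0.36 (-1.16 to 0.33), an interval that holds 0. Microglia stood at 136 and 137 CPM. The mutation changes an amino acid, so the level does not check the genotype labels. Among the receptors listed beside it, none of 17 measured was 2-fold apart, and Csf1r, Il10rb and Ifngr1 had log2 ratios of 0.06, -0.14 and -0.09.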

How the data were processed

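The study's 2 libraries were made with the 10x Genomics 5' kit from pooled hippocampi. Per the labels' protocols, the authors ran Cell Ranger 6.1.1 against Cell Ranger's mm10 mouse reference; Partek is named in the submitters' processing notes without a role. The deposited files give unnormalized UMI counts for 7713 wild-type and 5720 mutant barcodes, and no cell annotation. Filtered barcodes numbered 7246 and 5353. Counts were summed over the border macrophages, microglia or astrocytes of a library and given as CPM. Log2 ratios carry a pseudocount of 10 CPM, and their intervals are of the count ratio without it. Astrocytes (at least 10 UMIs of Slc1a2 and Aldoc, under 10 of Cldn5 and Flt1) served as the background for shares of cells with a UMI. No doublets were removed. Scrublet (scanpy 1.11.5) called 137 and 78 barcodes doublets, of which 1 and 0 were members. The called member is the wild-type cell richest in choroid plexus markers, Mt3 and Chchd10. Cell members, gene lists and tests were chosen with earlier results of these data known. Named genes were the 15 highest and 10 lowest against microglia and the 10 highest and 10 lowest by genotype, without markers of other cell types, sex-linked, ribosomal, haemoglobin and mitochondrial genes, antigen receptor segments or predicted genes. From each of 20 lists, the members of highest level and all past 2-fold could be named, and Crlf3. Other genes named (among them Il10, Irf7, Irf9, Isg15, Oasl2, Igf1, Axl, Mertk, Vsig4, Ciita and the genes compared by class II level) were chosen after their values were seen. Of 422 genes listed, 421 matched a symbol. Gene positions are from the GENCODE annotation of GRCm38 and promoters from RefSeq, GRCm38.p6. Tools were numpy 2.4.6, scipy 1.17.1 and pandas 2.3.3. The summing and ratio steps were tested on simulated data. Alternatives were other rule thresholds, filters, pseudocounts, thinning, means over cells, cells split by Xist and Y transcripts, and Scrublet; leaving out cells with microglial or monocyte UMIs, the richest cell of a gene, or cells of at least 10 class II UMIs was added after seeing the data. Some list genes are not reported here.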

Additional observations from a re-analysis of the deposited data

How the results depend on the processing

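No paired analysis was possible because each genotype is 1 library with no replicate numbers to match. Depth limits the comparison by genotype: 24 mutant cells give 162555 UMIs, and genes under 20 UMIs were not compared. Of the named genes' log2 ratios by genotype under the alternatives, 24 changed sign where the reported interval excluded 0, 212 others moved beyond that interval and 2076 stayed within it. Against microglia 77 ratios moved by more than 1 on the log2 scale, 723 by less, and 0 changed sign. Where a value moved, the cause was not tested, except that thinning, subsets and no filter change how many cells or genes enter.

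Border macrophage shares were 0.240% and 0.187% in Xist-marked cells (ratio 1.28), 1.51% in Y-marked wild-type cells, and 1.58% and 0.749% of macrophages and microglia. Wild-type members with at least 10 class II UMIs were 14.3% in the Xist-marked cells and 59.4% in the Y-marked cells. Genes at least 2-fold higher in the mutant library numbered 13 in the report, 36 with a minimum of 5 macrophage UMIs, 8 with a pseudocount of 50 CPM, 23 as a mean over cells, 470 with no filter on low genes and 6 without the richest cell of each gene. Genes at least 2-fold lower numbered 29 in the report, 112 in the Y-marked cells, 12 with a pseudocount of 50 CPM, 62 after thinning, 48 as a mean over cells, 713 with no filter, 45 without the richest cell and 151 in members under 10 class II UMIs. Genes at least 4-fold higher than in microglia, 90 in the report, numbered 50 in the Y-marked cells, 53 with a pseudocount of 50 CPM, 37 after thinning and 159 with no filter. Those at least 4-fold lower, 57 in the report, numbered 25 with a pseudocount of 50 CPM and 89 with no filter.

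The class II median log2 ratio by genotype was 0.54 with a minimum of 20 macrophage UMIs, 0.058 after thinning, -0.29 in the Y-marked cells, -0.14 as a mean over cells, -0.053 without the cells with monocyte genes and -0.21 without the richest cell. The immediate early median was -0.25 in the Y-marked cells, and the lipid median 0.58 after thinning. In members under 10 class II UMIs the medians were -0.90 for microglia genes, -0.48 for complement, -0.55 for transcription factors, -0.48 for immediate early genes and -0.79 for heat shock.

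The log2 ratios of single genes that changed sign follow. With a minimum of 5 macrophage UMIs, Ifi27l2a was 0.12. In the Y-marked cells Selenop was -0.017, H2-Aa -0.19, H2-Ab1 -0.33, Hmox1 0.16, Cxcl2 -0.73 and Zfp36 -0.42. After thinning H2-Eb1 was -0.32 and Cebpb 0.040. As a mean over cells H2-Aa was -0.076, H2-Ab1 -0.14 and Fth1 0.11. Without the cells with monocyte genes Tmsb10 was -0.23 and H2-Aa -0.065, and without the richest cell H2-Ab1 was -0.21. In members under 10 class II UMIs Fscn1 was -0.12, Cd74 -1.17, H2-Aa -1.18, H2-Ab1 -1.43, H2-Eb1 -0.51, Fth1 0.25, Ccl2 -0.46, Ccl3 0.31 and Zfp36 -0.48. Gene levels in the Xist-marked cells were not run, since it holds 4 mutant members.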
